A study of Mus musculus with 7 samples.

Results

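The 9 genes described here encode subunits of Polycomb repressive complex 2 (PRC2). They are Ezh1, Ezh2, Eed, Suz12, Rbbp4, Rbbp7, Jarid2, Mtf2 and Phf19. They were chosen by name, as the enzymes, core subunits and 3 of the accessory subunits of the complex, out of 21938 protein-coding genes of GENCODE M21 on mouse build mm10. The data were peak lists from 7 libraries of mouse muscle stem cells (MuSCs), the resident stem cells of skeletal muscle. ATAC-seq, in which a transposase inserts into open chromatin, gave 2 Control and 2 TRF2KO libraries titled 0 h, from sorted hindlimb MuSCs. CUT&Tag, in which an antibody brings the transposase to a chromatin protein, gave 2 TRF2 libraries and 1 IgG library.

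TRF2, the product of Terf2, binds telomeric repeats and is part of the complex that caps chromosome ends. TRF2KO stands for TRF2MuSC-cKO mice, in which a TRF2-floxed allele was crossed to Pax7CreERT2 and recombined with tamoxifen, so that deletion was limited to cells that express Pax7. In the labels the genotype entered for TRF2KO is wildtype, so the groups rest on the sample titles. The CUT&Tag cells are labelled wildtype, from tibialis anterior muscle 3 days after notexin, a muscle-damaging toxin, whereas the methods give a shorter time after injury. ATAC-seq and CUT&Tag therefore came from cells in different states, and no test was run between their values. Within each genotype the libraries are biological replicates according to the design of the series, although the animals behind each one are not named.

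PRC2 methylates lysine 27 of histone H3, a mark of silenced developmental genes. Ezh1 and Ezh2 are alternative catalytic subunits, with Ezh2 known from dividing cells and Ezh1 from resting and differentiated ones. Eed binds the methylated histone and stimulates the enzyme, Suz12 holds the complex together, and Rbbp4 and Rbbp7 are histone-binding proteins shared with other chromatin complexes. Jarid2, Mtf2 and Phf19 are accessory subunits that bring the complex to its targets. In MuSCs the complex is known for holding differentiation and other lineage genes silent.

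An E2F-type motif, the binding sequence of cell cycle factors, lay near 4 of the starts, and these sites are shown because no other motif searched had a share among the members so many times its share among all starts. It was spelled TTTCCCGC and searched on both strands within 250 bases of the gene start. It was present in 4 of the 9 members and in 2.08% of all 21938 protein-coding starts. The motif was picked by its share in these same members, and starts of like GC content were not compared. The motif is in capitals and each sequence reads along the strand of the motif, from the RefSeq assembly of GRCm38.
Suz12 (chr11:79992876-79992905, plus strand): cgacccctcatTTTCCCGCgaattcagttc
Phf19 (chr2:34914166-34914195, plus strand): ctttttcgcgtTTTCCCGCgaattattgac
Mtf2 (chr5:108065710-108065739, minus strand): cgccattttggTTTCCCGCggactagcggt
Eed (chr7:89980775-89980804, plus strand): gggcgggcggtTTTCCCGCcgccctctcga
Relative to the gene start, the centre of the stretch lay at -215 bp in Suz12, -155 bp in Phf19, 51 bp in Mtf2 and 193 bp in Eed. A second E2F-type spelling, TTTGGCGC, was in 0 of the 9 members and in 0.916% of all starts.

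The other motifs were searched in the same windows. The GC-box GGGCGGG was in 7 of 9 members and in 39.0% of all starts. CCAATC, the NFY motif, was in Ezh2 and Suz12, against 22.2% of all starts. The YY1 motif AAGATGGCG was in Phf19 alone among the members, against 2.83% of all starts. GTGGGAA, the core recognised by the Notch factor RBPJ, was in none of the 9 members and in 10.2% of all starts, and no member held the NRF1 spelling GCGCATGCG (2.80% of all starts), the ETS spelling ACCGGAAG (3.70%) or the CRE spelling TGACGTCA (2.74%). A single telomeric unit, TTAGGG, was in Eed alone among the members, against 16.5% of all starts. The median GC content of the member windows was 65.8%, against 57.0% for all starts, and the median ratio of observed to expected CpG was 0.882 against 0.586. Jarid2 was the least GC-rich, at 50.2%, and Phf19 the most, at 72.0%. The Jarid2 window does not reach its ATAC start summits, which lay 1165 to 1245 bp into the gene. Its GC content and lack of motifs therefore describe the annotated start and not that opening. Under the TRF2 peak at 1244 bp of Jarid2 the GC content was 62.7%.

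The 4 ATAC lists held 84102 to 100521 MACS peaks, the TRF2 lists 12290 and 15479, and the IgG list 656. A MACS fold is the number of fragments stacked at the summit plus 1, divided by the background plus 1. The ATAC background was 1 constant value in each library, 3.35 to 4.56 fragments, and was highest in Control replicate 2, which also had the most peaks. At the start of Terf2, the targeted gene, both Control libraries, at 54.3 and 48.4, lay above the TRF2KO libraries, at 21.5 and 18.6. Its log2 difference was -1.43 ± 0.10 (SE), with an adjusted p of 1.48e-04 by limma, and the TRF2KO labels were taken as correct. All 8 MuSC markers had a start peak in every ATAC library, with a summed fold of 468 to 528, and one of them, Itga7, was lower in TRF2KO (-0.40, adjusted p = 0.0414). Of the markers selected against in the sort, Ptprc and Itgam had no listed start peak and Pecam1 was at 3.96 to 7.09. The summed fold of the fibro-adipogenic markers Pdgfra and Dcn was 48.9 in TRF2KO replicate 1 and 10.4 to 19.6 in the other libraries. The 48.9 was Pdgfra alone, at a summit 4120 bp from its start, against 2146 to 2151 bp in the other libraries. It is thus not the same summit, and Dcn had no listed start peak in TRF2KO replicate 1 or Control replicate 2. The summed fold of the myofibre markers Acta1, Ckm and Myh4 was higher in both Control libraries, at 48.1 and 42.3, than in TRF2KO, at 31.8 and 34.5. Acta1 had a log2 difference of -0.61, with an adjusted p of 0.0562 by limma, and Myh4 had no listed start peak in TRF2KO replicate 1. The part of other cells in the results was not tested. Fewer open cells and less open chromatin in each cell cannot be told apart in such libraries.

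Every member had an ATAC peak at its start in all 4 libraries. In descending order of the fold of the nearest peak, the means over the 4 libraries were 122 ± 10.2 (SD, n = 4) for Ezh2, 120 ± 14.7 for Rbbp4, 103 ± 14.1 for Suz12, 99.9 ± 7.81 for Jarid2, 70.4 ± 6.43 for Rbbp7, 47.4 ± 6.65 for Mtf2, 43.2 ± 2.50 for Eed, 28.0 ± 0.499 for Ezh1 and 11.2 ± 0.280 for Phf19. Neighbours from Ezh2 down to Jarid2 overlapped in their ranges, as did Mtf2 and Eed. The other neighbours did not overlap, so the members fell into an upper group of 4, Rbbp7 alone, the pair of Mtf2 and Eed, then Ezh1, then Phf19. The SD and the ranges take the 2 Control and 2 TRF2KO libraries together, as deposited, so they mix genotype with replicate. These folds are heights at the summit and are not expression.

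**Figure D1:**
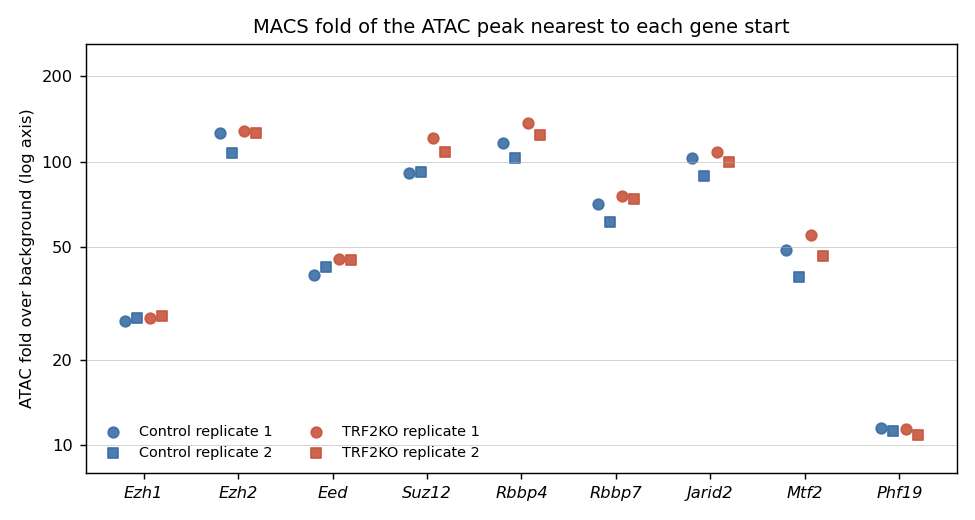
MACS fold of the ATAC peak nearest to each gene start (log axis), with 1 point for each of the 2 Control and 2 TRF2KO libraries. The folds run from 10.9 at Phf19 to 137 at Rbbp4, and the 2 genotypes lie close together at every member.

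The catalytic subunits had start peaks of different height. The fold at the start of Ezh2 (chr6:47530139-47595341, minus strand) stood at 126 and 107 in the Control libraries and at 128 and 126 in TRF2KO. Its summit lay 178 bp inside the gene, in an intron, in all 4 libraries, under 547 to 591 stacked fragments. At Ezh1 (chr11:101191115-101226463, minus strand) the start peak reached 27.4 and 28.1 in the Control libraries and 28.1 and 28.6 in TRF2KO, under 118 to 155 fragments. Ezh2 was thus the higher of the pair in each library, with no overlap. Among the start peaks of all protein-coding genes, the Ezh2 peak stood at the 88.9th to 90.4th percentile, and the Ezh1 peak stood at the 33.9th to 36.7th in the 3 libraries where it was the highest peak in the window.

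Ezh1 had a second open region, higher than its start. This region had its summit 3858 bp upstream (chr11:101229316-101232760) and folds of 41.7 and 36.0 in Control and 42.8 and 41.3 in TRF2KO. Its edge came within 3 kb of the start in Control replicate 2 only, so that library's value in the window was 36.0 and not 28.1. A further region in an intron, 14.3 kb into the gene, had folds of 24.2 and 17.8 in Control and 19.4 and 13.4 in TRF2KO, and the genotypes overlapped there. Ezh2, by contrast, had a single region across a locus of 69226 bp, the one at its start.

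Of the core subunits, Suz12, Eed and Rbbp7 each had a single ATAC region over the locus, and Rbbp4 had 2. The folds at the start of Suz12 (chr11:79993106-80034123, plus strand) were 90.9 and 92.1 in Control and 121 and 108 in TRF2KO. Those of Eed (chr7:89954654-89980983, minus strand) were 40.0 and 42.5 against 45.3 and 45.2. Rbbp4 (chr4:129307100-129335370, minus strand) had 116 and 103 against 137 and 124, and Rbbp7 (chrX:162760402-162779092, plus strand) had 71.1 and 61.2 against 75.5 and 74.0. In each of these 4 genes both TRF2KO libraries lay above both Control libraries, by 1.10 to 1.25 times between the means. The Eed peak also covers the start of the noncoding gene E230029C05Rik, and the Rbbp4 peak covers that of the coding gene Zbtb8os, 325 bp away, so the signal cannot be divided between them.

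With Ezh1, whose nearest start peak was 1.02 times higher, 5 of the 9 members had both TRF2KO folds above both Control folds as deposited. The same held for 34.2% of the 14118 genes with a start peak in all 4 libraries, and the opposite order held for 0 members and 8.09% of genes. With the highest peak in the window in place of the nearest, the genotypes overlapped at Ezh1. The share of all genes on that scale was not computed. After quantile normalisation of the log2 folds of those highest peaks, Suz12 and Rbbp4 were above, and Jarid2 was below, with a difference of -0.02. For all genes these shares were 23.2% above and 21.7% below.

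In the limma test of the highest start peak, 0 of 9 members were called at an adjusted p of 0.05, against 1.11% of the 14118 genes tested (42 higher, 0.297%, and 115 lower, 0.815%). At an unadjusted p under 0.05 there were 2 members, Suz12 and Rbbp4, against 14.6% of all genes. The log2 difference was 0.19 ± 0.076 (SE) for Suz12, with an adjusted p of 0.300 by limma. It was 0.13 ± 0.053 for Rbbp4, with an adjusted p of 0.310. The other 7 members had adjusted p-values of 0.598 to 0.975 in the same limma fit. Their differences ran from -0.21 ± 0.17 for Ezh1 to 0.12 ± 0.098 for Mtf2, with Ezh2 at -0.01 ± 0.052, Eed at 0.04 ± 0.11, Rbbp7 at 0.06 ± 0.074, Jarid2 at -0.02 ± 0.057 and Phf19 at 0.01 ± 0.15. The Ezh1 value rests on the upstream peak in Control replicate 2, and without that library it was 0.07. The median over the members was 0.04, against 0.01 for all genes tested.

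**Figure D2:**
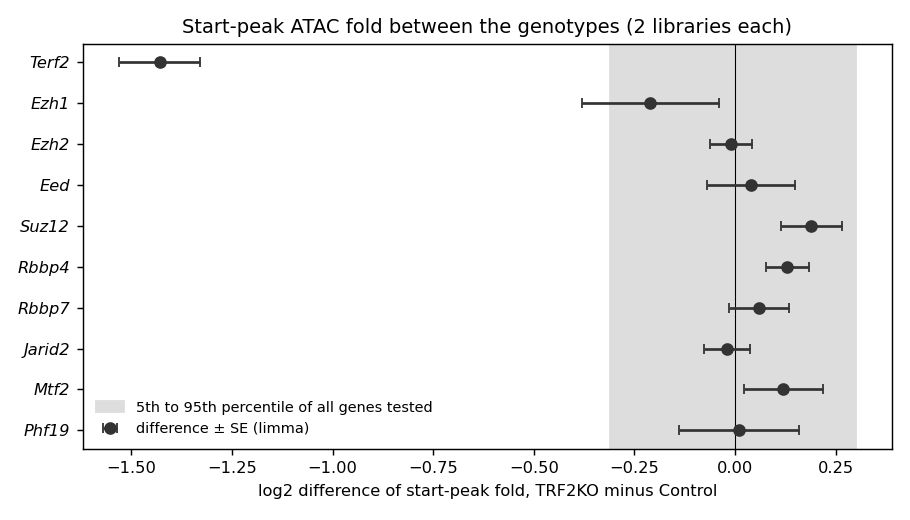
Log2 difference of the start-peak fold, TRF2KO minus Control, for Terf2 and the 9 members, as points with the SE from limma (2 libraries in each genotype). Terf2 lies at -1.43, and all 9 members lie between -0.21 and 0.19, inside the grey band from the 5th to the 95th percentile of all genes (-0.31 to 0.30).

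Among the accessory subunits, Mtf2 (chr5:108065674-108109004, plus strand) had folds of 49.0 and 39.1 in Control and 55.1 and 46.5 in TRF2KO at its start, and the genotypes overlapped. Phf19 (chr2:34893757-34914026, minus strand) was the lowest member at its annotated start, with 11.5 and 11.2 in Control and 11.4 and 10.9 in TRF2KO, under 47 to 61 fragments. That peak also covers the start of the noncoding gene Gm13448. The strongest opening of Phf19 lay inside the gene, at 8954 bp from the start (chr2:34903957-34905821), with folds of 200 and 166 in Control and 210 and 200 in TRF2KO. This intronic region covers the start of a Phf19 transcript annotated as noncoding, which begins 9119 bp into the gene. A second such start, at 9874 bp, lay inside the peak of TRF2KO replicate 1 only. Another Phf19 region, over a coding exon at 6982 bp, had folds of 24.7 to 26.7 in the 4 libraries. None of the 5 Phf19 regions was in the authors' consensus regions of either genotype. The other peak callers, GoPeaks and SEACR, did list the intronic region in all 4 libraries. Why the consensus leaves Phf19 out was not tested, so its folds are to be read with that limit.

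Jarid2 (chr13:44729474-44921643, plus strand) is the longest member, and it held 34 of the 52 merged ATAC regions over the 9 loci. A locus is the gene body plus 3 kb around each annotated transcript start. The start peak of Jarid2 had its summit 1165 to 1245 bp into the gene, near the starts of several of its coding transcripts, with folds of 103 and 89.3 in Control and 108 and 99.6 in TRF2KO. A second peak at 4210 bp had folds of 48.6 and 44.1 in Control and 58.6 and 55.4 in TRF2KO. Far inside the gene, at 178354 bp, an intronic region reached 73.6 and 79.5 in Control and 73.9 and 81.3 in TRF2KO, and there the genotypes overlapped. All 16 annotated transcript starts of Jarid2 had a peak within 500 bp in all 4 libraries, as against 50 of the 78 starts of the 9 genes together and 3 of 12 for Ezh2. Most of the 16 lay within 2385 bp of the gene start and shared the start peak, so they are not separate openings.

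**Figure D3:**
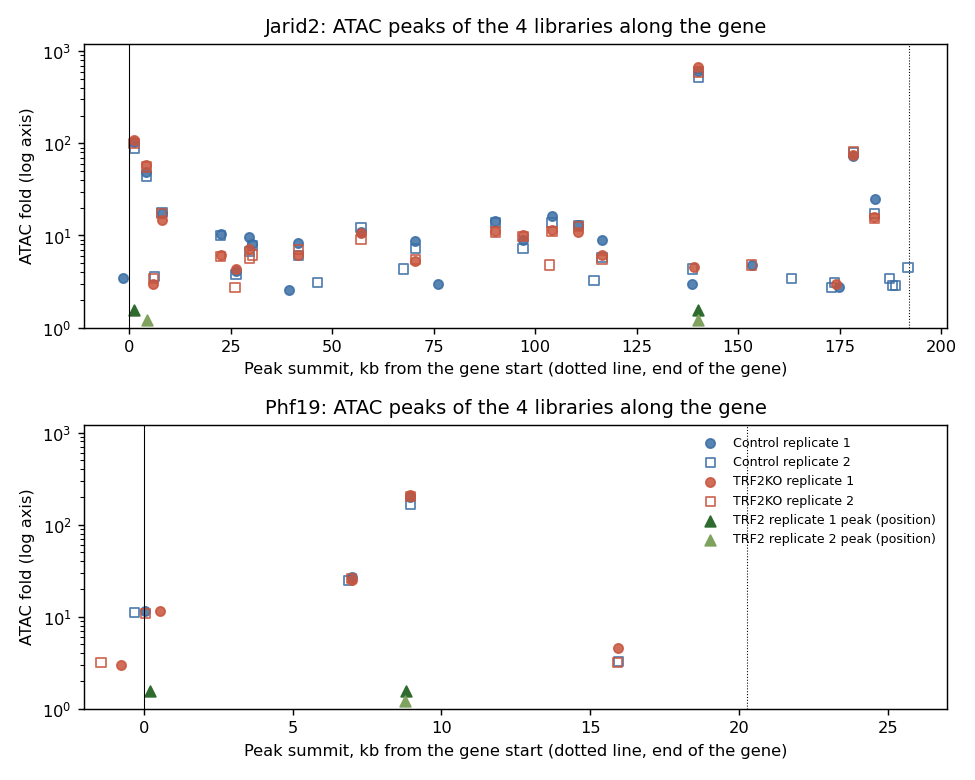
ATAC peaks along Jarid2 (upper panel) and Phf19 (lower panel), as MACS fold on a log axis against the distance of the summit from the gene start in kb. Points stand for the 4 ATAC libraries and triangles mark positions of TRF2 peaks. Phf19 is highest 8954 bp into the gene, at 166 to 210, and Jarid2 is highest 140226 bp into the gene, at 518 to 678.

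Of the 17 Jarid2 regions present in all 4 libraries, 13 lay over 3 kb from any start of a coding gene's transcripts. In 7 of these 13 both TRF2KO folds were below both Control folds, and in 1 they were above. Over all 41106 such regions the shares were 35.8% below and 14.5% above. With log2 folds centred on the median of each library, 6 of 13 were below and 2 above, against 25.4% below and 31.2% above. The 2 above include the region at 140226 bp, which has near-copies elsewhere, described below. That region also counts toward the median of the 13. The difference with the widest ratio was at 22512 bp, where the folds were 10.4 and 9.90 in Control and 6.18 and 5.90 in TRF2KO. The region at 70454 bp had 8.75 and 7.20 against 5.26 and 5.45. In the other direction, the region at 96995 bp had 8.98 and 7.20 against 10.1 and 9.76. The median centred difference over the 13 regions was -0.16, against 0.04 for all such regions, and no test was run because regions of 1 gene are not replicates.

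**Figure D4:**
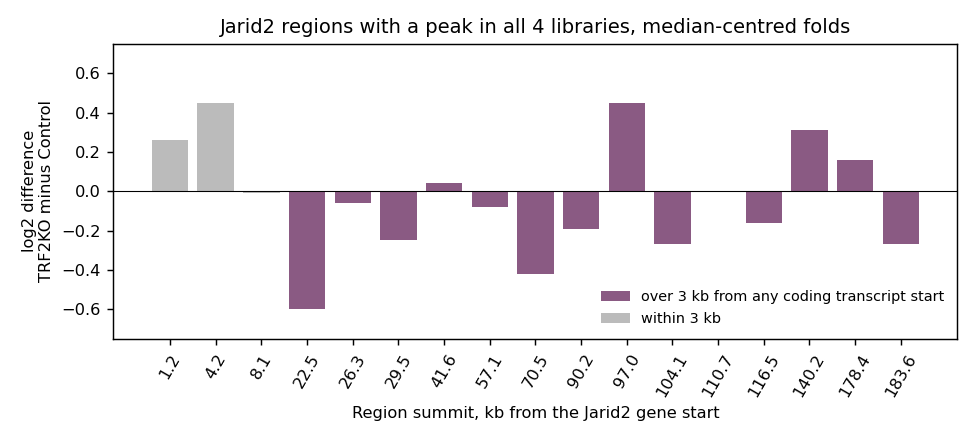
Log2 difference of median-centred ATAC fold, TRF2KO minus Control, for the 17 Jarid2 regions with a peak in all 4 libraries, each labelled by the distance of its summit from the gene start in kb. Bars are differences between means of 2 libraries, purple for the 13 regions over 3 kb from any coding transcript start and grey for the others. The widest negative difference, -0.60, is at 22512 bp.

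One Jarid2 region stood far above the rest and lies in sequence with many near-copies. In an intron, at 140226 bp from the start (chr13:44869572-44870236), the ATAC folds were 618 and 518 in Control and 678 and 597 in TRF2KO, within the top 18 peaks of each list. Both TRF2 libraries had a peak there, at 22.1 and 21.3, and so did the IgG library, at 10.0, the only IgG peak over the 9 loci. BLASTN found 18 other places on the mouse chromosomes that matched this region over at least 150 bases at 90% identity or more. Of these 18 places 17 had an ATAC peak in all 4 libraries, 3 had a TRF2 peak in both libraries and 1 had an IgG peak. The part of the copies in this signal was not tested. Like the Phf19 regions, this region was absent from the authors' consensus regions of both genotypes. A stretch of 120 bases from under the TRF2 summit is shown so that it can be recognised elsewhere (chr13:44869590-44869709, plus strand).
Jarid2 intron: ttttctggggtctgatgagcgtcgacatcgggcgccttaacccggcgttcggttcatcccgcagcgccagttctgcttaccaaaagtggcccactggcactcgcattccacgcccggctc

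Over the 9 loci together the numbers of MACS peaks were 37 and 47 in Control and 33 and 35 in TRF2KO. The difference of the means was -8.00, and the two-sided exact permutation p was 0.333, the smallest that 2 libraries against 2 can give. Base pairs inside peaks were 34303 and 39032 in Control and 33519 and 29649 in TRF2KO (exact permutation p = 0.333). As a share of all base pairs in peaks of the same list, the members took 0.0488% and 0.0507% in Control and 0.0513% and 0.0478% in TRF2KO, and the genotypes overlapped. Control replicate 2 alone accounted for 12 of the 52 merged regions, or 23.1%, against 13.6% of all merged regions. Of these 12, 10 were in Jarid2, with folds of 2.70 to 4.50. Without Control replicate 2 the difference in peaks was -3.00.

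A single region belonged to 1 genotype by MACS, in that both Control libraries listed it and neither TRF2KO library did. It lies in Rbbp4 over a noncoding exon (chr4:129324892-129325120), 10353 bp from the start, with folds of 9.21 and 6.84. That is 1 of 52 member regions, against 4.48% of all 122720 merged regions. No member region was particular to TRF2KO in this sense, against 1.12% of all regions, and the share in either direction was 5.61%. GoPeaks, another caller, listed the Rbbp4 region in all 4 libraries.

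TRF2 CUT&Tag placed a peak within 3 kb of the start in both libraries for 5 of the 9 members. This held for 24.1% of all protein-coding genes, and for 37.3% of those with an ATAC start peak in all 4 libraries. In either library, all 9 members had such a peak, against 40.1% of all genes. Of the 14118 genes with an ATAC start peak in all 4 libraries, as every member has, 5541 had no TRF2 start peak in either library. No member start had an IgG peak, against 0.150% of all genes with one. The TRF2 share followed the height of the ATAC start peak. Over 5 groups of genes of equal size, ordered by mean ATAC fold, it was 4.85%, 16.0%, 31.9%, 52.5% and 81.4% from the lowest group to the highest. Ezh2, Suz12, Jarid2 and Rbbp4 were in the highest group, Rbbp7 in the next, then Eed and Mtf2, then Ezh1, and Phf19 was in the lowest.

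The 5 members with TRF2 in both libraries were the enzyme Ezh2 and the 4 core subunits. The TRF2 folds in replicates 1 and 2 were 8.42 and 10.0 at Rbbp4, under 18 and 19 fragments. They were 6.31 and 10.1 at Suz12, 8.76 and 6.29 at Ezh2, 4.82 and 8.82 at Rbbp7 and 7.01 and 5.57 at Eed. Neither replicate was the higher at all 5 starts. Summits of the 2 libraries were 2 bp apart at Suz12 and 254 bp apart at Ezh2, the closest and the widest of the 5. These summits rest on 8 to 19 fragments, so an ordering of the members by TRF2 fold was not attempted.

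The other 4 members had a TRF2 peak at the start in 1 library. Ezh1 had one in replicate 1, at 6.63 under 10 fragments, and Mtf2 had one in replicate 2, at 5.16 under 6 fragments. Phf19 had a fold of 3.93 in replicate 1, at the 3.16th percentile of TRF2 start peaks in that library. Its intronic region had TRF2 in both libraries, at 8.64 and 11.4, so that within Phf19 both the ATAC and the TRF2 signal were higher at the inner site than at the annotated start. At Jarid2 the peaks of replicate 1 (5.32) and replicate 2 (5.19) lay at different openings, 1244 bp and 4390 bp into the gene.

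**Figure D5:**
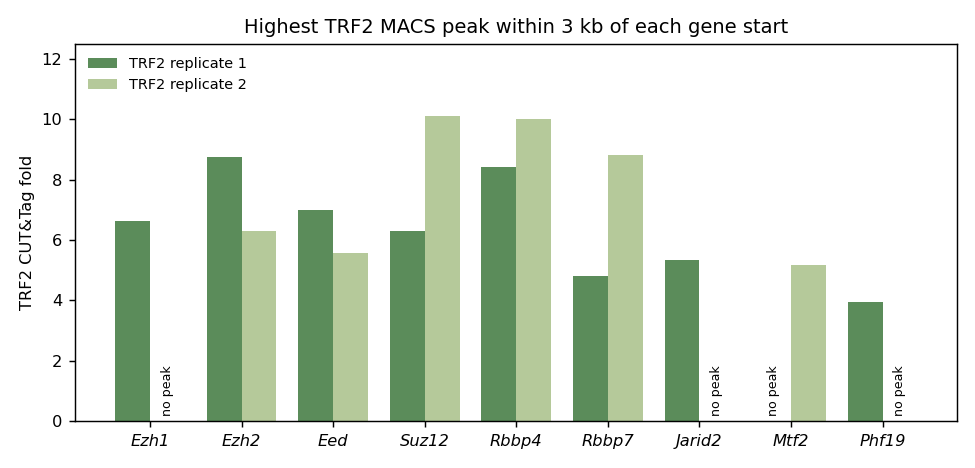
Fold of the highest TRF2 MACS peak within 3 kb of each member's start, as bars for the 2 TRF2 CUT&Tag libraries. Ezh2, Eed, Suz12, Rbbp4 and Rbbp7 have a bar in both libraries, and Ezh1, Jarid2, Mtf2 and Phf19 have a bar in 1.

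The sequence under the member TRF2 peaks is shown because TRF2 is known to bind telomeric repeats and to contact G-quadruplexes, stacked structures of guanine runs. No TRF2 peak over the 9 loci held 3 consecutive TTAGGG units on either strand. On both strands a G-quadruplex pattern was searched, in which 4 guanine runs, each 3 or more long, are joined by loops no longer than 7 bases. Matches were found under peaks of Ezh1, Suz12, Jarid2, Phf19, Rbbp4 and Rbbp7, and under none of Ezh2, Eed or Mtf2. The Rbbp4 match lay wholly inside the peak of replicate 2 only. Those printed for Ezh1 and Jarid2 lay under peaks of replicate 1 only. The Jarid2 peak of replicate 2, at 4390 bp, held 3 other matches, which are not printed. The share of all TRF2 peaks with a match was not computed. In the 500 bases around the gene start, a different window, the pattern was in 6 of 9 members and in 30.0% of all starts. Those 6 include Ezh2 and leave out Jarid2. The guanine runs are in capitals below, and each match reads along the strand of the runs.
Suz12 (chr11:79993173-79993196, minus strand): GGGGaggagaGGGGaaGGGaaGGG
Rbbp4 (chr4:129335249-129335272, plus strand): GGGaGGGGttGGGGGatcccGGGG
Rbbp7 (chrX:162760165-162760194, minus strand): GGGGGcggctGGGcccgcgcGGGGGtGGGG
Ezh1 (chr11:101226355-101226376, minus strand): GGGGctGGGcggtGGGGccGGG
Phf19 intron (chr2:34905410-34905434, minus strand): GGGGcacgtGGGactgcaGGGtGGG
Jarid2, opening at 1244 bp (chr13:44730656-44730678, plus strand): GGGcccGGGGaaGGGGGaGGGGG
A pattern match describes the letters and does not show that the structure forms.

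For Suz12, where the TRF2 summits of the 2 libraries lay closest together, the 150 bases before the gene start are shown with the NFY motif in capitals. TRF2 summits of replicates 1 and 2 fell 14 and 16 bp before the start, and the 4 ATAC summits fell 13 to 16 bp before it. For Ezh2, one of the 4 members in the upper group by ATAC fold, the capitals mark a G-quadruplex pattern on the opposite strand, which is not wholly inside either TRF2 peak.
Suz12 upstream (chr11:79992956-79993105, plus strand): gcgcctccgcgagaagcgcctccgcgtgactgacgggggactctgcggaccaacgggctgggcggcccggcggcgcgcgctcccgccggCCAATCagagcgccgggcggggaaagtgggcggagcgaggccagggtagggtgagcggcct
Ezh2 upstream (chr6:47595342-47595491, minus strand): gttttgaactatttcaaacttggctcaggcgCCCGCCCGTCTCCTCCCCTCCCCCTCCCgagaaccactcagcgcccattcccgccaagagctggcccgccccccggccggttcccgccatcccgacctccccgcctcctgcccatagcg

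The wider Polycomb and Trithorax list held 53 genes, of which 50 had an ATAC start peak in all 4 libraries and were tested. One was called, Chd3, a helicase of the NuRD complex that also contains Rbbp4 and Rbbp7. Its folds were 105 and 93.9 in Control and 92.2 and 71.3 in TRF2KO, a log2 difference of -0.42 ± 0.085 (SE) with an adjusted p of 0.0489 by limma. The highest peak in its window had its summit 4217 bp from the start in TRF2KO replicate 2 and 3046 to 3093 bp in the other libraries. That is 1 of 50, beside the 1.11% of all genes tested. The 50 genes had a median difference of 0.02, with 29 above 0, where all 14118 genes had a median of 0.01, with 7335 above 0. By class, 0 of 22 PRC1 genes, 0 of 5 other PRC2 accessory genes, 0 of 2 H3K27 demethylases, 0 of 4 deubiquitinase genes, 0 of 6 COMPASS genes and 1 of 11 NuRD genes were called. Cbx7, Ash2l and Dpy30 had no listed peak within 3 kb of the start of the gene model, and all 3 were left out of the test. TRF2 lay at the start in both libraries for 19 of the 53, or 35.8%, beside 24.1% of all coding genes and 37.3% of those with an ATAC start peak in all 4 libraries. It did so for 4 of 23 genes in PRC1 and 7 of 11 in NuRD.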

How the data were processed

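Cells were MuSCs; per the labels, ATAC-seq used 2 Control and 2 TRF2KO libraries, and CUT&Tag 2 TRF2 and 1 IgG. The authors aligned reads to mm10 with Bowtie2 (2.5.4 for ATAC, 2.4.4 for CUT&Tag, per the submitters' processing notes) and called peaks per library with MACS3 (3.0.2 and 3.0.0). ATAC libraries also have SEACR (1.3) and GoPeaks lists. Removal of duplicates and of reads without a unique, properly paired alignment, with Picard 3.1.1 and SAMtools 1.10, is described for CUT&Tag, and the notes name the same tools for ATAC without the filters. Peak-caller thresholds, a shift for the transposase and the use of IgG as control are not given in the sources used here, so summits can be off by a few bases. The deposited MACS fold is a ratio at the summit over background, with the authors' −log10 p and −log10 q beside it. SEACR and GoPeaks lists gave positions only. The authors' DiffBind consensus regions were used only for whether they list a region. The methods describe taking out ENCODE blacklist regions before that consensus was made.

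Peaks on chromosomes 1 to 19, X and Y were joined to GENCODE M21 genes by at least 1 bp of overlap. A start peak was the highest-fold peak within 3 kb of the gene start. Folds were taken as log2, quantile-normalised and tested with limma 3.58.1 (R 4.3.3, trend) across all protein-coding genes with a start peak in all 4 libraries, with Benjamini-Hochberg adjustment. No pseudocount was used. The fit was tested on simulated data with planted changes far larger than any member difference, which does not bear on differences of the members' size. Fragments at summits were solved from fold and p, and intervals on them would cover counting error only. Pileups and locus totals were computed in Python 3.11.15 and copies were found with BLASTN 2.17.0. Locus totals were compared by exact permutation. Alternatives covered scaling, block, window, caller, threshold and left-out libraries. The 9 members, Terf2, genes sharing a start peak, and those of the wider list that passed the test or had no start peak were named. The members, lists and motifs were chosen with earlier results of these data known.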

Additional observations from a re-analysis of the deposited data

How the results depend on the processing

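No member was called in any of the 12 alternative limma fits, and of 108 recomputed member differences 92 kept their sign and 16 changed it, all without a call. The changes of sign were for Ezh2 (0.04 median-centred, 0.13 without normalisation, 0.01 and 0.02 without Control replicate 1 and TRF2KO replicate 1), Jarid2 (0.01 median-centred, 0.11 without normalisation), Phf19 (-0.12 median-centred, -0.02 without normalisation and with a 500-bp window, -0.00 at any transcript start, -0.03 at the nearest peak, -0.03 and -0.02 without Control replicate 1 and TRF2KO replicate 2), Eed (-0.09 and -0.02 without Control replicate 1 and TRF2KO replicate 2) and Ezh1 (0.07 without Control replicate 2). Without 1 library the differences ran from -0.49 to 0.07 for Ezh1, -0.04 to 0.02 for Ezh2, -0.09 to 0.16 for Eed and -0.03 to 0.06 for Phf19. The cause was not tested, apart from Ezh1, where the library left out is the one whose window caught the upstream peak. All genes called numbered 157, and 298 median-centred, 237 without normalisation, 267 at any transcript start, 70 with the 500-bp window, 55 with missing peaks set to a fold of 1, 62 at the peak nearest to the start (added after seeing the data) and 0 without any 1 library. Terf2 then had adjusted p-values of 0.271 to 0.563, at differences of -1.46 to -1.37. Without normalisation the median of all genes was 0.11.

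The replicate block left 0 members called, with 194 genes called in all, and gave the same differences of -8.00 peaks and -5083.5 bp (exact p = 0.500 for 2 pairs). Over genes, the normalised deviations of same-numbered libraries correlated at -0.0395. With 2 libraries a genotype this cannot decide whether the numbers pair the libraries. The difference in peaks over the member loci was 0.500 with SEACR regions, -3.50 at a −log10 q of at least 5, and -13.0 to -3.00 without 1 library. GoPeaks listed 28 and 30 regions in Control and 28 in each TRF2KO library. Base pairs differed by -13819.5 with SEACR regions and -7448 to -2719 without 1 library. Without the Jarid2 copy region the differences were -8.00 peaks and -5090.5 bp. Member regions of 1 genotype numbered 1, and 0 with GoPeaks, with SEACR or when no caller was allowed to list the region in the other genotype, and 2 to 13 without 1 library, where fewer libraries have to share a peak. Members with TRF2 at the start numbered 9 with either library (40.1% of all coding genes), 3 at a −log10 q of at least 5 (Ezh2, Suz12, Rbbp4, against 13.2%), 7 around any transcript start (26.9%), 6 without TRF2 replicate 1 (33.1%) and 8 without TRF2 replicate 2 (31.2%). With 2 libraries a genotype, small differences were not detectable at this depth, and ATAC start summits of 47 fragments at Phf19 carry a 95% counting interval of 34.5 to 62.5.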
